A study of Mus musculus with 7 samples.

Results

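The genes described here are 10 imprinted genes that control growth, chosen by name from the mouse genome: Dlk1, Meg3, H19, Peg3, Plagl1, Mest, Grb10, Ndn, Gnas and Cdkn1c. Of these, 8 had a row in the table of 11642 rows used here, and Dlk1 and Meg3 had none, so that their levels were not analysed. The values came from C2C12 cells, a line of mouse myoblasts that leave the cell cycle and fuse into myotubes in low serum. All RNA-Seq samples were total RNA of cells on day 2 of differentiation, 2 treated with scramble siRNA (si-SCR) and 2 with a single siRNA against lnc-SMaRT (si-SMaRT). They came from 2 independent cell populations, and which sample came from which is not given in the sources used here. Lnc-SMaRT (Gm14635) is a long non-coding RNA of muscle cells. A further 3 libraries held RNA from day 2 cells recovered with probe set #1 against lnc-SMaRT, RNA recovered with probes against LacZ, and the input of the pull-down, without replicates. The question put to these data was whether the level of the imprinted genes differed between si-SMaRT and si-SCR cells, and whether their RNAs lay under pull-down peaks.

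Imprinted genes are transcribed mainly from the copy inherited from 1 parent, and DNA methylation set in the germ line marks which copy that is. Many of the paternally expressed ones promote growth of the embryo and many of the maternally expressed ones restrain it. In muscle, H19 is a long non-coding RNA that is strongly transcribed in embryonic muscle and in differentiating myoblasts, and its transcript is the precursor of miR-675. It shares enhancers with Igf2, a growth factor of differentiating myoblasts, which is expressed from the opposite parental copy. Cdkn1c encodes p57, an inhibitor of cyclin-dependent kinases that acts in the cell cycle exit of myoblasts. Mest, Peg3, Plagl1, Ndn and Dlk1 are expressed from the paternal copy, and H19, Meg3 and Cdkn1c from the maternal copy. The reads were not split by parental copy, so each value below is the sum of both.

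Of the members, H19, Mest and Meg3 host miRNAs, and Meg3 (miR-770 and miR-1906) had no row here. H19 and Mest are described as the members with the highest level and with the change that passed the test. The hairpin of miR-675 lies in an exon of H19 (chr7:142577064-142577147, minus strand) and that of miR-335 in an intron of Mest (chr6:30741299-30741396, plus strand). Their mature sequences (RefSeq, GRCm38.p6) are given 5′ to 3′ with the seed, bases 2 to 8, in capitals.
mmu-miR-675-5p: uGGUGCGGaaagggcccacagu
mmu-miR-675-3p: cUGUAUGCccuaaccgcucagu
mmu-miR-335-5p: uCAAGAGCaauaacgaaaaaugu
mmu-miR-335-3p: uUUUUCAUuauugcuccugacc
These arms have 4 different seeds, so no seed is shared between the miRNAs of H19 and Mest. The RNA-Seq values count reads on the host genes. They are no measure of the mature miRNAs.

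The values are RPKM, read numbers scaled to the length of the gene and the size of the library, which can be set side by side between genes. In si-SCR cells H19 had the highest level of the members at 5854 ± 287 RPKM (SD, n = 2), followed by Cdkn1c at 246.5 ± 46.8, Gnas at 58.9 ± 5.42, Peg3 at 20.8 ± 2.54, Mest at 7.26 ± 0.44 and Ndn at 1.22 ± 0.032 RPKM. Grb10, with 0.429 ± 0.057 RPKM, and Plagl1, with 0.111 ± 0.042 RPKM, were lowest. The order was the same in all 4 samples. No neighbours in this order overlapped over the 4 samples, apart from Peg3 with Mest (Mest reached 19.9 RPKM in si-SMaRT cells, above the 19.1 RPKM of Peg3 in si-SCR 1). H19 made up between 91.8% and 95.3% of the summed RPKM of the 8 genes in each sample.

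**Figure D1:**
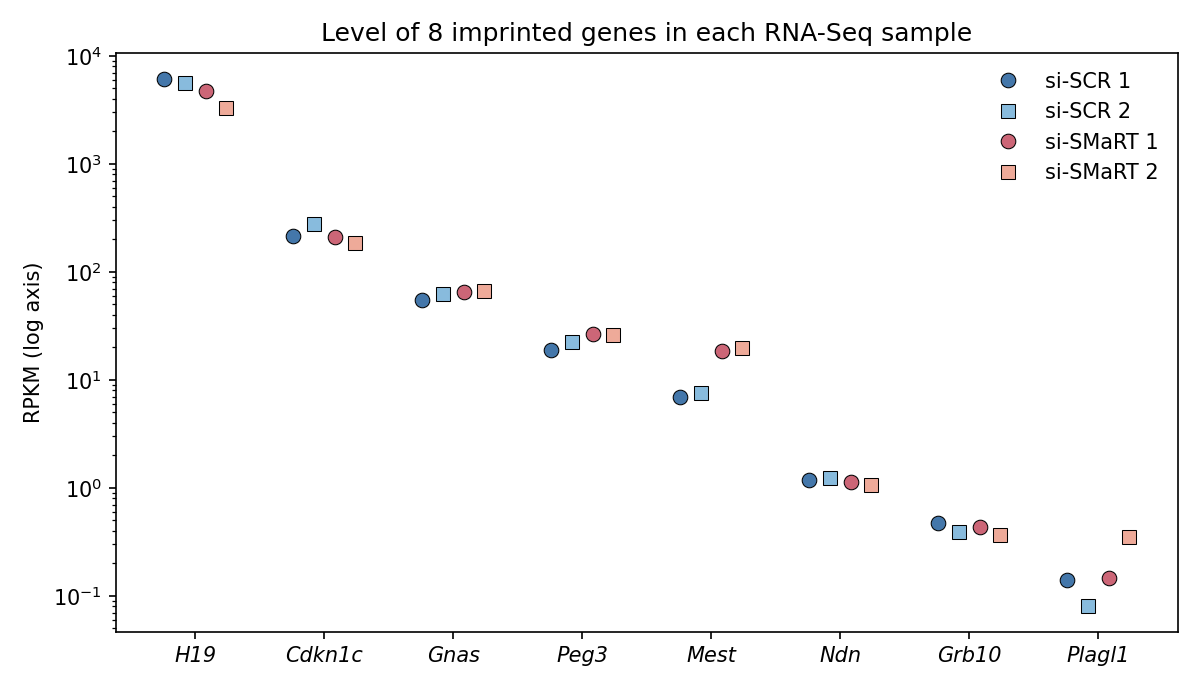
Level of the 8 imprinted genes with a row in each RNA-Seq sample, in RPKM on a log axis. Each point is 1 sample, 2 of si-SCR (blue) and 2 of si-SMaRT (red). H19 is highest in every sample, and Mest sits at 6.95 and 7.57 RPKM in si-SCR against 18.5 and 19.9 RPKM in si-SMaRT.

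The lnc-SMaRT row, the check of the knockdown, had 19.1 and 15.9 RPKM in si-SCR and 2.88 and 3.65 RPKM in si-SMaRT samples, with a log2 fold change of -2.39 (SE 0.278, limma adjusted p = 0.000882). Effective library sizes were between 11291255 and 14312935 reads. The si-SMaRT samples differed from each other more than the si-SCR samples, with a median absolute log2 difference over genes of 0.418 against 0.185, and their difference moved with GC content. With genes split into 4 equal groups by GC content, the median log2 difference of si-SMaRT 2 minus si-SMaRT 1 was -0.68 in the group of highest GC content (from 54.0%) and 0.54 in the lowest (to 44.5%). Of 13 muscle markers 12 had a row (Myf6 had none), and their summed level was 11050 and 11450 RPKM in si-SCR against 7814 and 5541 RPKM in si-SMaRT. A sum weighs the genes of high RPKM most, so it does not show whether each marker was lower. The markers of fat, endothelium and bone had no row, 1 of 5 of blood had at most 1.13 RPKM, and 1 of 4 of neurons, Tubb3, had between 13.6 and 24.1 RPKM. In such bulk samples, fewer cells that express a gene and less RNA of it per cell cannot be told apart.

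Mest was the member whose change passed the test. It rose in si-SMaRT cells, and 6 of the 8 members with a row passed the filter on low values (a mean of at least 0.5 RPKM) and were tested. Adjusted p was under 0.05 for 1 of these 6, while over all 11086 genes tested the call was made for 0.505%, with 0.18% called higher. The median log2 fold change of the 6 was 0.01, against 0.02 over all genes. The groups of all 6 did not overlap, 3 higher and 3 lower in si-SMaRT, where the same held for 40.7% of all genes tested (20.2% higher and 20.4% lower).

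Mest encodes a protein of the alpha/beta hydrolase family and is a paternally expressed gene of chromosome 6 (chr6:30723547-30748465, plus strand, GRCm38). Its level in the si-SCR samples was 6.95 and 7.57 RPKM, and in the si-SMaRT samples 18.5 and 19.9 RPKM. Both si-SMaRT samples lay far above both si-SCR samples, and the replicates of each group differed little. The mean rose from 7.26 ± 0.44 to 19.2 ± 1.01 RPKM (SD, n = 2 each), a ratio of 2.64. The log2 fold change of log2(RPKM + 0.1) was 1.39 (SE 0.265, 95% interval 0.83 to 1.95, limma adjusted p = 0.0232). At least 346, 421, 820 and 1120 reads stood behind the values, in the order of the samples above.

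Among the genes of each sample, Mest moved from place 5762 and 5558 by RPKM in si-SCR to 2826 and 2701 in si-SMaRT. The call was lost when either si-SCR sample was left out, at an unchanged size: the log2 fold change was 1.33 without si-SCR replicate 1 (limma adjusted p = 1.0) and 1.45 without si-SCR replicate 2 (adjusted p = 0.75). These fits take the spread from the si-SMaRT pair and assume that the lone si-SCR sample varies like it. Without si-SMaRT replicate 1 the log2 fold change was 1.44 and without replicate 2 it was 1.33. The spread in these 2 fits comes from the si-SCR pair alone, whose samples differed less over genes. The lone si-SMaRT sample is assumed to vary like that pair, so only the size is given. With the GC trend of each sample removed it was 1.36 (95% interval 1.06 to 1.65, limma adjusted p = 0.00234), where the call was made for 4.96% of genes, with 2.09% called higher.

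The neighbour of Mest is Copg2, a gene of the coat of transport vesicles on the opposite strand, and 912 bases of the exons of Mest overlap its exons. Copg2 had 20.8 and 18.5 RPKM in si-SCR and 17.1 and 20.3 RPKM in si-SMaRT samples, with overlapping groups and a log2 fold change of -0.07 (95% interval -0.63 to 0.48, limma adjusted p = 0.964). The ratio of Mest to Copg2 was accordingly 0.334 and 0.409 in si-SCR and 1.08 and 0.98 in si-SMaRT. The libraries were made with a kit that keeps the strand, but whether reads were counted by strand is not given in the sources used here. The effect of the shared bases on the values of Mest and Copg2 is therefore not known. RefSeq gives starts of Mest at 3 places, and the values per gene do not say which of them was used.

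**Figure D2:**
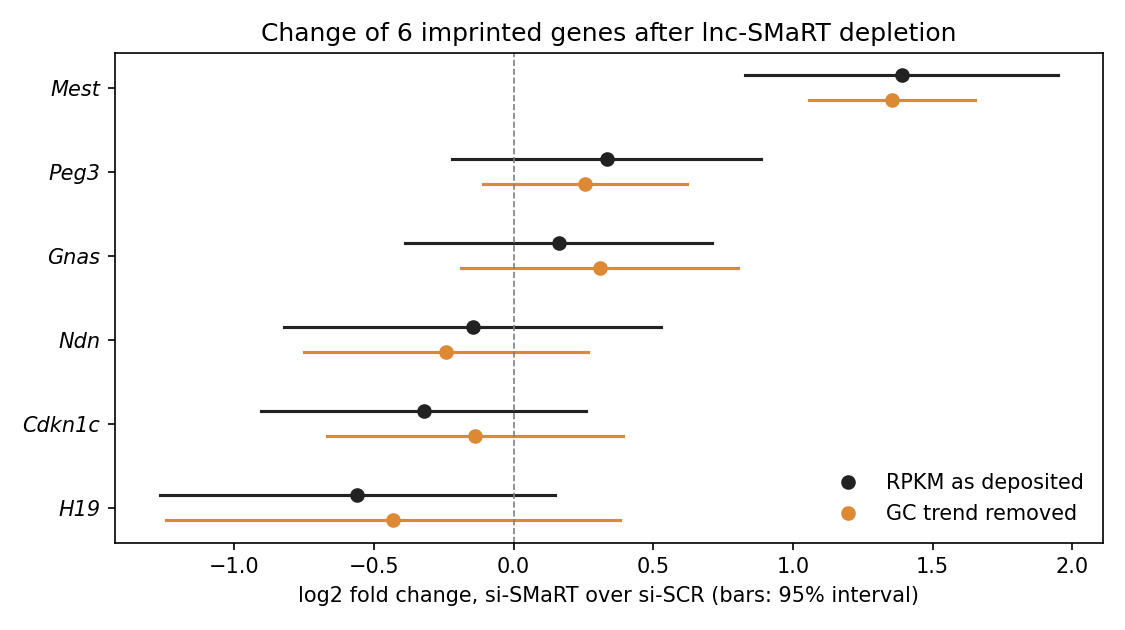
Log2 fold change of si-SMaRT over si-SCR for the 6 imprinted genes tested, as points with 95% intervals, on the deposited RPKM (black) and after removal of the GC trend (orange). The intervals of Mest, 0.83 to 1.95 and 1.06 to 1.65, lie above 0, and those of the other 5 genes include 0.

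H19 (chr7:142575529-142578143, minus strand, with Mir675 in the same row) had 6058 and 5651 RPKM in si-SCR and 4757 and 3310 RPKM in si-SMaRT. Both si-SMaRT samples were below both si-SCR samples, and si-SMaRT 2 was well below si-SMaRT 1. The mean was 5854 ± 287 RPKM in si-SCR and 4033 ± 1023 RPKM in si-SMaRT (SD, n = 2), with a log2 fold change of -0.56 (SE 0.335, 95% interval -1.27 to 0.15, limma adjusted p = 0.661). The difference did not pass the test, at 112366 or more reads behind each value. H19 was between the 4th and the 6th gene by RPKM in every sample and took 1.44%, 1.34%, 1.13% and 0.785% of the effective library, in the order si-SCR 1 and 2 and si-SMaRT 1 and 2. The gene has a GC content of 56.3%, in the group of genes in which si-SMaRT 2 was low, and its log2 difference between si-SMaRT 2 and 1 was -0.52. With the GC trend removed the log2 fold change was -0.43 (95% interval -1.24 to 0.38, limma adjusted p = 0.487). The summed muscle markers were lower in the same samples, and their part in the level of H19 was not tested.

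Igf2, the partner of H19 in its cluster, had 115.9 and 144.3 RPKM in si-SCR and 101.4 and 90.3 RPKM in si-SMaRT. Its groups did not overlap, and its log2 fold change of -0.43 (95% interval -1.0 to 0.13) did not pass the test (limma adjusted p = 0.679). The ratio of H19 to Igf2 was 52.3 and 39.2 in si-SCR and 46.9 and 36.6 in si-SMaRT, so that the groups overlapped in this ratio.

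Cdkn1c (chr7:143458339-143461050, minus strand) had 213.4 and 279.6 RPKM in si-SCR and 208.4 and 183.2 RPKM in si-SMaRT. The groups did not overlap, but si-SMaRT 1 was close to si-SCR 1. The mean was 246.5 ± 46.8 RPKM in si-SCR and 195.8 ± 17.8 RPKM in si-SMaRT (SD, n = 2), and the log2 fold change of -0.32 (95% interval -0.91 to 0.26) did not pass the test (limma adjusted p = 0.806). With the GC trend removed it was -0.14, and the GC content of the gene was the highest of the 6. Of its exons 625 bases overlap Gm44732 on the opposite strand. Kcnq1ot1, the paternally expressed antisense RNA of the same cluster, had 0.653 and 0.788 RPKM in si-SCR and 0.83 and 1.32 RPKM in si-SMaRT, with a log2 fold change of 0.49 (limma adjusted p = 0.741).

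Gnas (chr2:174284320-174346744, plus strand) encodes the stimulatory G protein alpha subunit that couples hormone receptors to adenylate cyclase, and further transcripts from other promoters. It had 55.1 and 62.8 RPKM in si-SCR and 65.1 and 66.5 RPKM in si-SMaRT. The si-SMaRT samples were above the si-SCR samples by little, and the log2 fold change was 0.16 (95% interval -0.39 to 0.71, limma adjusted p = 0.907). The antisense transcript Nespas shares 988 bases with the exons of Gnas, and the row does not split the Gnas transcripts.

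Peg3 (chr7:6703892-6730431, minus strand), a zinc finger protein, had 19.1 and 22.6 RPKM in si-SCR and 26.4 and 26.0 RPKM in si-SMaRT. Both si-SMaRT samples were above both si-SCR samples, but the log2 fold change of 0.33 (95% interval -0.22 to 0.89) did not pass the test (limma adjusted p = 0.784). Its neighbour Zim1 had a log2 fold change of -0.13 (limma adjusted p = 0.929). The ratio of Peg3 to Mest, both expressed from the paternal copy, was 2.74 and 2.99 in si-SCR and 1.43 and 1.31 in si-SMaRT.

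Ndn (chr7:62346569-62350262, plus strand) encodes necdin, a protein that binds E2F factors and favours differentiation in muscle and nerve cells. It had 1.2 and 1.24 RPKM in si-SCR and 1.13 and 1.06 RPKM in si-SMaRT. The groups were barely apart, at 21 to 29 recovered reads per sample (a lower limit). The log2 fold change was -0.15 (95% interval -0.82 to 0.53, limma adjusted p = 0.935).

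Grb10 and Plagl1 did not pass the filter on low values. Grb10 (chr11:11930508-12038683, minus strand), an adaptor that restrains signalling from the insulin and IGF1 receptors, had 0.469 and 0.389 RPKM in si-SCR and 0.439 and 0.369 RPKM in si-SMaRT, with overlapping groups and 45 to 54 reads per sample. Plagl1 (chr10:13060504-13131694, plus strand), a zinc finger transcription factor that binds to other imprinted genes, had 0.141 and 0.0814 RPKM in si-SCR and 0.147 and 0.348 RPKM in si-SMaRT. Here si-SMaRT 2, with 39 reads, stood above the other 3 samples, which had 9 to 14 reads. In the fit without a filter the log2 fold change was -0.07 for Grb10 (limma adjusted p = 0.969) and 0.67 for Plagl1 (95% interval -0.1 to 1.44, limma adjusted p = 0.595).

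**Figure D3:**
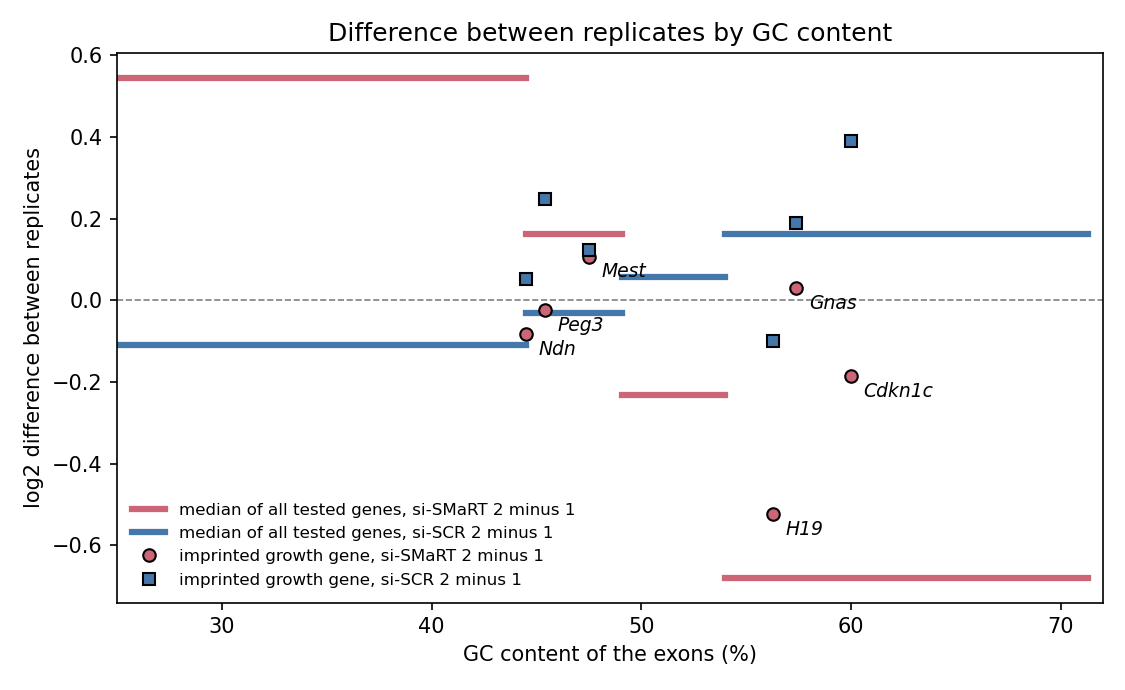
Log2 difference between the replicates of a group against the GC content of the exons (%), for the 6 imprinted genes tested (points) and as the median over all genes tested in each of 4 groups by GC content (bars). The si-SMaRT medians go from 0.54 to -0.68 with rising GC content and the si-SCR medians from -0.11 to 0.16, and H19 has the lowest si-SMaRT difference of the 6 genes, -0.52.

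The other genes of the imprinted clusters were described by a list of 52, of which 29 had a row and 25 rows were tested. None passed the adjusted threshold in limma, and 2 had an unadjusted p under 0.05 (9.09% of all genes did). The log2 fold change was above 0 for 13 and below 0 for 12, with a median of 0.04. After removal of the GC trend 1 gene passed, where 4.96% of all genes did. Peg10, a gene derived from a retrotransposon, had 0.545 and 0.647 RPKM in si-SCR and 1.59 and 1.11 RPKM in si-SMaRT, with a log2 fold change of 1.04 (limma adjusted p = 0.258). Decorin (Dcn), a proteoglycan of the extracellular matrix, had 65.2 and 55.7 RPKM in si-SCR and 102.1 and 148.4 RPKM in si-SMaRT. This was a log2 fold change of 1.03 (limma adjusted p = 0.142), and 0.84 with the GC trend removed (adjusted p = 0.021).

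The groups of Peg12 and of Igf2r, the next by size of the difference, were also apart. Their log2 fold changes were 0.57 and 0.53 (limma adjusted p = 0.676 and 0.606). Peg12 was near the floor, with 0.479 and 0.482 RPKM in si-SCR and 0.839 and 0.688 RPKM in si-SMaRT. At least 16, 18, 25 and 26 reads stood behind these values. Igf2r, the receptor that removes IGF2 from the cell surface, had 23.7 and 32.8 RPKM in si-SCR and 46.6 and 34.7 RPKM in si-SMaRT. Rian, Mirg, Rtl1 and Dio3, which lie in the cluster of Dlk1 and Meg3, had no row either, and Dlk1 and Meg3 were the 2 members for which no level was read.

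Receptors, binding partners and effectors of the proteins were described by a list of 26, of which 24 were tested. Ccnd1, the cyclin D1 partner of CDK4 in cycling cells, was the 1 that passed, where 0.505% of all genes did. It rose from 3.96 and 3.27 RPKM to 9.17 and 9.6 RPKM, with a log2 fold change of 1.36 (SE 0.276, limma adjusted p = 0.0356), and its call was lost without si-SCR replicate 1 (log2 fold change 1.49, limma adjusted p = 0.764) and without si-SCR replicate 2 (1.23, adjusted p = 1.0). The call was also lost without a filter on low values, under quantile normalization and with the replicate block (limma adjusted p = 0.0531, 0.0619 and 0.0591), at log2 fold changes of 1.36, 1.35 and 1.36. With the GC trend removed 7 of the 24 passed, all higher, where 4.96% of all genes passed and 2.09% were called higher. The median log2 fold change was 0.25, with 18 genes above 0 and 6 below, and over all genes tested it was 0.02, with 5795 above and 5291 below. An unadjusted p under 0.05 in limma was found for 5 of the 24, against 9.09% of all genes. Igf1r, the receptor through which IGF2 acts, had 4.68 and 5.19 RPKM in si-SCR and 10.9 and 7.32 RPKM in si-SMaRT, and a log2 fold change of 0.85 (limma adjusted p = 0.291, and 0.0461 with the GC trend removed). Igf2bp2, which binds the Igf2 mRNA, had a log2 fold change of 0.75 and Irs1, the adaptor below these receptors, of 0.67 (limma adjusted p = 0.381 and 0.413, and 0.0337 and 0.0375 with the GC trend removed).

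Genes that maintain imprints were described by a list of 16, all tested. None passed in limma, and 1 had an unadjusted p under 0.05, against 9.09% of all genes. With the GC trend removed 3 of the 16 passed, all higher, against 4.96% of all genes (2.09% higher). The log2 fold change was above 0 for 15 of 16, with a median of 0.31, and above 0 for 5795 of all 11086 genes. Uhrf1, which brings the methyltransferase DNMT1 to newly replicated DNA, had 9.96 and 10.7 RPKM in si-SCR and 18.6 and 12.7 RPKM in si-SMaRT, with a log2 fold change of 0.57 (limma adjusted p = 0.569, and 0.0253 with the GC trend removed). Dnmt1 itself had a log2 fold change of 0.54 (limma adjusted p = 0.602, and 0.0358 with the GC trend removed) and the chromatin remodeller Hells of 0.82 (adjusted p = 0.359 and 0.0372).

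**Figure D4:**
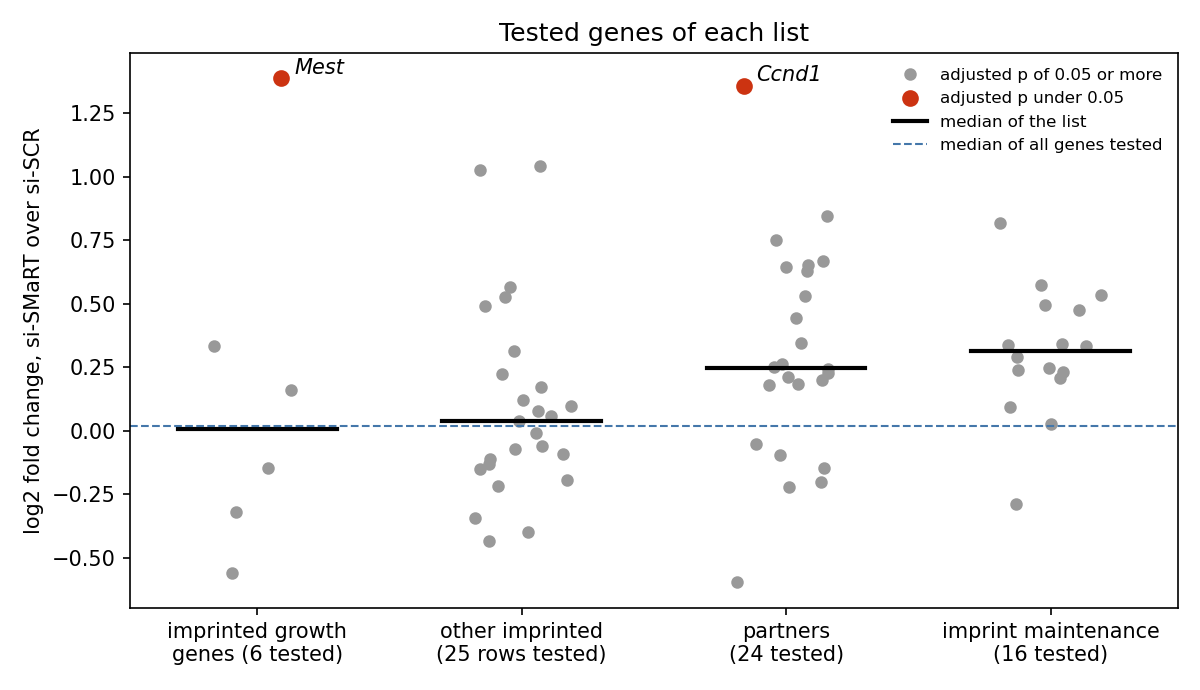
Log2 fold change of si-SMaRT over si-SCR of each tested gene of the 4 lists (points), with the median of each list (black line) and of all genes tested (dashed line, 0.02). Mest at 1.39 and Ccnd1 at 1.36 are the genes with an adjusted p under 0.05 (red), and the medians of the lists are 0.01, 0.04, 0.25 and 0.31.

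The genes whose pattern over the 4 samples was most like a member were found by the root mean square difference of log2 values after each gene's mean was subtracted. For H19 these were Qars, Panx1 and Nat9, with differences of 0.027, 0.0291 and 0.0295 among 11085 candidates. Cdkn1c was most like Gab2 at 0.0223, Slmo1 at 0.0264 and Etl4 at 0.0326, and Gnas most like Cdca4 at 0.00567, Fubp3 at 0.00841 and Leo1 at 0.0143. Over 4 samples many genes follow a given pattern by its shape alone, so these values are a description.

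No pull-down peak lay on a member. The list of the lnc-SMaRT pull-down has 345 peaks and that of the LacZ pull-down 336, and 0 of either overlapped a gene body or exon of the 10 members or of the other imprinted genes on the same strand. The same was found on either strand and for the 172 and 175 peaks with p under 0.001. On Gm14635, the RNA aimed at, lay 5 of the 345 peaks and 0 of the 336 LacZ peaks. H19, with the highest level of the members, and Mest were thus both without a peak. With 345 peaks beside a table of 11642 rows, few genes can have one, and the share over all genes was not computed. The absence is therefore not read as a trait of the members. The lists hold peaks only, and each pull-down was a single library, so that no level of binding below the peak threshold was read.

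The promoters of the members were compared with all promoters of the mouse in RefSeq (GRCm38.p6), from 250 bases before to 50 bases after each start. Windows were found for 8 members, 15 in all (3 for Mest), and none was used for H19 or Cdkn1c, which these values do not cover. The 2 E-boxes searched were both palindromic and so read on both strands: CACGTG, the core bound by MLX with its partners, and CAGCTG, a form bound by MyoD. CACGTG was in 1 of the 15 windows (Plagl1), where 7.15% of 32851 promoters hold it, and CAGCTG in 1 (Mest), where 16.3% do. These matches, the only ones in the windows, are shown with flanking bases and the motif in capitals. Whether either match bears on the level of its gene was not tested.
Mest, chr6:30733361-30733386, plus strand: aggggaaggaCAGCTGaggaagatgt
Plagl1, chr10:13090640-13090665, plus strand: ctcctcctcaCACGTGacactggagg
Counted from the start site, the motifs begin at -135 in Mest, at the most upstream of its 3 starts, and at -182 in Plagl1. Within 100 bases around the start neither motif was found. The windows held a median of 16 CpG sites against 7 over all promoters, and a median ratio of observed to expected CpG of 0.605 against 0.384. The 15 windows are not independent, since windows of neighbouring starts of Gnas and of Mest share most of their bases. No match says only that these letters are not in the windows.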

How the data were processed

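Per the labels and the study's methods, the authors used Trimmomatic for trimming, set aside rRNA and tRNA reads by Bowtie2, aligned the rest to GRCm38 with TopHat2, counted them per Ensembl gene with htseq-count in its strict intersection mode, and removed genes of low CPM. The deposited RPKM values were calculated by the authors with edgeR from library sizes normalized by TMM, and 576 of 11642 rows join genes that overlap. The authors called pull-down peaks by Piranha (bins of 200 bases), and the deposited lists hold a p-value for each. The methods name peaks against the input and against LacZ, and which of them the lists hold is not given in the sources used here.

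Two-sided tests were made by limma 3.58.1 (lmFit and a trended eBayes, under R 4.3.3) on the log2(RPKM + 0.1) of the 11086 genes whose mean RPKM reached 0.5. The p-values were adjusted by Benjamini-Hochberg over all genes of the fit they come from (11086 unless a filter or the GC trend is named), at a threshold of 0.05. On this scale the change of genes with low RPKM is understated. Reads were recovered from the steps between the RPKM values of a gene as the smallest common factor. They summed to between 10936099 and 14254196 per sample, and are lower limits where the gene model of GENCODE M21 did not set the factor, which among the members it did for Gnas, Grb10 and Plagl1. They have no molecular identifiers, so depth speaks for counting error only. GC content came from GENCODE M21 and GRCm38, and its trend in each sample was removed by loess (span 0.3) over 10552 genes. The members, the gene lists and the tests were chosen with earlier results of these data known. Of the lists, genes past the threshold and up to 4 with the largest log2 fold change among those whose groups do not overlap were named, and for likeness 3 genes for each of the 3 members with the highest level. A gene that this rule names is not reported here. Igf2, Copg2, Kcnq1ot1 and Zim1 were named as neighbours of members, after their values were seen.

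The alternatives were pseudocounts of 1 and 0.01, no filter, a minimum mean of 1 RPKM, quantile normalization, eBayes without trend, a block for the replicate number, leaving out 1 sample at a time, the GC trend removed, and voom on the recovered reads. A crossed replicate block was not planned and is included among them below. Python 3.11.15, numpy 2.4.6, pandas 2.3.3 and matplotlib 3.10.9 were used for the rest.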

Additional observations from a re-analysis of the deposited data

How the results depend on the processing

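The direction of all 6 members tested and of lnc-SMaRT was the same under every alternative run, except that quantile normalization gave a log2 fold change of 0.0 for H19, whose places among the genes were the same in both groups. Most alternatives could not have reversed the direction. The groups of these genes did not overlap, so leaving out 1 sample or changing the pseudocount keeps the sign. The filters, eBayes without trend and the replicate blocks do not alter the log2 fold change. Mest passed under every alternative that kept all 4 samples, the unplanned crossed block among them. Its log2 fold changes were 1.33 to 1.45 over the fits that leave out 1 sample. The call was lost without si-SCR replicate 1 or 2. Calls without a si-SMaRT replicate are not counted, since their spread comes from the si-SCR pair alone. The other 5 members passed under none.

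The count of genes past the threshold was 56, and 37 with quantile normalization, 523 with the GC trend removed, 107 with voom on the recovered reads and between 24 and 2908 with each sample left out. Without si-SCR replicate 1 or 2 it was 24 and 30, and without si-SMaRT replicate 1 or 2 it was 2908 and 941, since the spread then comes from 1 pair of samples. With the GC trend removed, 1 of the other imprinted genes, 7 of the partners and 3 of the genes that maintain imprints passed, and with each sample left out between 0 and 3, 0 and 11, and 0 and 4. Of the partners 0 passed without a filter, under quantile normalization and with the replicate block.

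With the replicate number as a block 96 genes passed. Samples with the same number did not deviate together (correlation of deviations -0.362 over 11086 genes), and no source used here ties the numbers to the cell populations, so they were not taken as pairs. A crossed block, added after the values were seen, gave 487 genes, with 2 of the other imprinted genes, 2 of the partners and 1 of the genes that maintain imprints. Mest also passed under this crossed block.

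With 2 samples per group, and a si-SMaRT pair that differs with GC content, the 95% intervals of H19, Cdkn1c, Peg3 and Gnas include 0. Levels of Ndn, Grb10 and Plagl1 rest on few reads.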
